A study of Homo sapiens with 24 samples.

Results

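The genes followed here are 10 of telomere maintenance, in 3 human cell lines. They were chosen by name, by a rule that uses no measured value: TERT and DKC1 of the telomerase enzyme, the chromatin genes ATRX and DAXX, and the shelterin genes TERF1, TERF2, TERF2IP, POT1, TINF2 and ACD. Earlier results of these data were known when the choice was made, so it was not blind to them. All 10 members were found among the 51715 genes of the count tables. The cells were U-2 OS, an osteosarcoma line, U-251MG, a glioblastoma line, and A-431, an epidermoid carcinoma line, all untreated and grown to log phase. Poly(A)-selected RNA was sequenced from whole cells (total RNA) and from a lysate meant to leave nuclei behind (cytoplasmic RNA), with 4 libraries for each line and fraction and 24 in all. The study describes the 4 as biological replicates, but each line is a single established line, so p-values measure the spread between cultures of that line. Libraries carry their label numbers. Total RNA of U-2 OS is 1 to 4, of U-251MG 5 to 8 and of A-431 9 to 12, and cytoplasmic RNA of U-2 OS is 13 to 16, of U-251MG 17 to 20 and of A-431 21 to 24.

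Chromosome ends shorten with every round of replication. Most cancer cells rebuild them with telomerase, in which the reverse transcriptase TERT copies an RNA template and dyskerin, encoded by DKC1, holds that RNA. Other cancer cells use recombination between telomeres, known as the alternative lengthening of telomeres (ALT). U-2 OS is a widely used ALT line and has been described as lacking ATRX protein. ATRX and DAXX together place the histone variant H3.3 at telomeres. Shelterin coats the repeats: TRF1 (TERF1) and TRF2 (TERF2) bind the double strand, RAP1 (TERF2IP) binds TRF2, TIN2 (TINF2) bridges these proteins, and TPP1 (ACD) joins TIN2 to POT1, which binds the single strand. TPP1 also recruits telomerase.

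On GRCh37, the build used for the counts, TERT (ENSG00000164362) lies at chr5:1253262-1295183 on the minus strand, and ATRX (ENSG00000085224) at chrX:76760358-77041719 on the minus strand. POT1 (ENSG00000128513) lies at chr7:124462440-124570037 and ACD (ENSG00000102977) at chr16:67691415-67694713, both on the minus strand. DKC1 (ENSG00000130826) lies at chrX:153991017-154005964 on the plus strand, DAXX (ENSG00000204209) at chr6:33286335-33290793 on the minus strand and TINF2 (ENSG00000092330) at chr14:24707492-24711869 on the minus strand. TERF2 (ENSG00000132604) lies at chr16:69389470-69442474 on the minus strand and TERF2IP (ENSG00000166848) at chr16:75681671-75795770 on the plus strand, and TERF1 is ENSG00000147601. The values are sums over the exons of each gene and do not show which exons were read or whether a protein is made. Reads were counted without regard to strand, and some members share exon bases with a gene on the opposite strand: TINF2 shares 957 bases with GMPR2, TERF2IP 176 with KARS1, POT1 111 with POT1-AS1 and ACD 58 with CARMIL2. The small nucleolar RNA genes SNORA36A and SNORA56 share bases with annotated exons of DKC1. These overlaps are those of GENCODE v44lift37. The study counted on an earlier annotation, in which they may differ. In the study's way of counting, reads wholly within exon bases shared in its own annotation were set aside as ambiguous and are missing from the members' counts.

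Gene counts per library ranged from 19918911 to 32394170. Library 13 matched the study's read table in 1 of 4 values where 22 others matched in all 4, and 21.5% of its uniquely aligned reads fell outside exons, against 16.9% to 17.8% in libraries 14 to 16; it was left out, so cytoplasmic U-2 OS has n = 3. Markers of the lines partly went against their names. The 5 A-431 markers, EGFR among them, summed to 16336 to 18846 scaled CPM (gene counts relative to the total of the library after TMM scaling) in A-431 total RNA and to 465 to 542 in that of U-2 OS, but KRT17 alone was higher in U-2 OS (459 CPM ± 28.2, SD) than in A-431 (108 ± 20.5). The 5 bone-lineage markers summed to 1674 to 1744 CPM in U-2 OS and were higher, at 2743 to 3186, in U-251MG, with COL1A2 under 1 CPM in U-2 OS. The 5 neural markers summed to 229 to 283 CPM in U-251MG, against 185 to 199 in U-2 OS, where 3 of them (FABP7, GFAP and PTPRZ1) were under 1 CPM, and all 5 were under 1 CPM in A-431. MALAT1 and NEAT1, long RNAs that stay in the nucleus, summed to 186 to 644 CPM over the total RNA libraries and to 646 to 1390 over those labelled cytoplasmic, which goes against the labels, and in each line the ranges of the fractions did not overlap. The mitochondrial mRNAs MT-CO1 and MT-ND1 were higher in the cytoplasmic libraries (11715 to 16499 CPM, against 3685 to 9903), which is the direction the labels give. By the study's methods, electrophoresis showed a peak of nuclear RNA in the total RNA samples and, among cytoplasmic ones, in a single U-2 OS sample, which the study did not use. Their part in the members' values was not tested. The flow cells A and B named below are those of the study's read table.

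TERT was barely counted in U-2 OS and was counted in every library of the other lines. The 4 U-2 OS total RNA libraries held 0, 2, 1 and 0 TERT counts, and the 3 U-2 OS cytoplasmic libraries 1, 2 and 1. In U-251MG they were 8, 7, 6 and 15 in total RNA and 18, 24, 24 and 13 in cytoplasmic RNA. In A-431 total RNA held 20, 15, 39 and 13 and cytoplasmic RNA 57, 32, 39 and 52. No U-2 OS library reached the lowest library of either other line in the same fraction. In bulk RNA, fewer cells with TERT and less TERT per cell cannot be told apart.

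Pooled over libraries, A-431 total RNA held 87 TERT counts and U-2 OS total RNA 3, a ratio of 28.6 after scaling (95% exact interval 9.47 to 141). The corresponding ratio of U-251MG to U-2 OS was 12.4 (3.92 to 63.0). In cytoplasmic RNA the ratios were 31.2 (11.96 to 116) for A-431 and 15.2 (5.69 to 57.0) for U-251MG. The exact intervals of this paragraph, from counts pooled over libraries, cover counting error only. They take reads as independent and leave out the spread between libraries. The level in U-2 OS total RNA was 0.0293 CPM (exact Poisson interval 0.00604 to 0.0856), against 0.838 (0.671 to 1.03) in A-431.

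Across all genes, edgeR's quasi-likelihood F-test called TERT lower in U-2 OS than in A-431 by a log2 ratio of -4.62 (SE 0.586, adjusted p = 8.52e-08) in total RNA and -4.86 (SE 0.439, adjusted p = 2.46e-09) in cytoplasmic RNA. Against U-251MG the log2 ratios were -3.42 (SE 0.698, adjusted p = 9.09e-05) and -3.83 (SE 0.509, adjusted p = 8.49e-07). A call was made at an adjusted p under 0.001. TERT passed the filter on low counts through U-251MG and A-431 alone, and in the U-2 OS libraries by themselves it did not. For U-251MG minus A-431 the TERT log2 ratio was -1.20 in total RNA, which was not called (SE 0.363, adjusted p = 0.00462), and -1.03 in cytoplasmic RNA, which was (SE 0.231, adjusted p = 4.42e-04). The call in cytoplasmic RNA was lost without library 17, 20, 21 or 24, and with any 1 library left out the log2 ratio ranged from -1.13 to -0.86. The comparisons of U-2 OS with A-431 and with U-251MG share the U-2 OS libraries here and throughout.

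DKC1, which also acts in the modification of ribosomal RNA, was abundant in all 3 lines. Total RNA held 176, 171, 153 and 171 CPM in U-2 OS. It held 214, 210, 212 and 231 in U-251MG, next to 228, 258, 228 and 250 in A-431. U-2 OS did not overlap the other lines, whereas U-251MG and A-431 overlapped. DKC1 was 1.46-fold lower in U-2 OS than in A-431 (log2 ratio -0.54, SE 0.063, adjusted p = 1.77e-08) and 1.28-fold lower than in U-251MG (-0.36, SE 0.063, adjusted p = 1.28e-05). In cytoplasmic RNA the log2 ratios were -0.49 and -0.37, both called. Between U-251MG and A-431 it was not called in either fraction (log2 ratio -0.18, 95% interval -0.31 to -0.06, in total RNA).

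**Figure D1:**
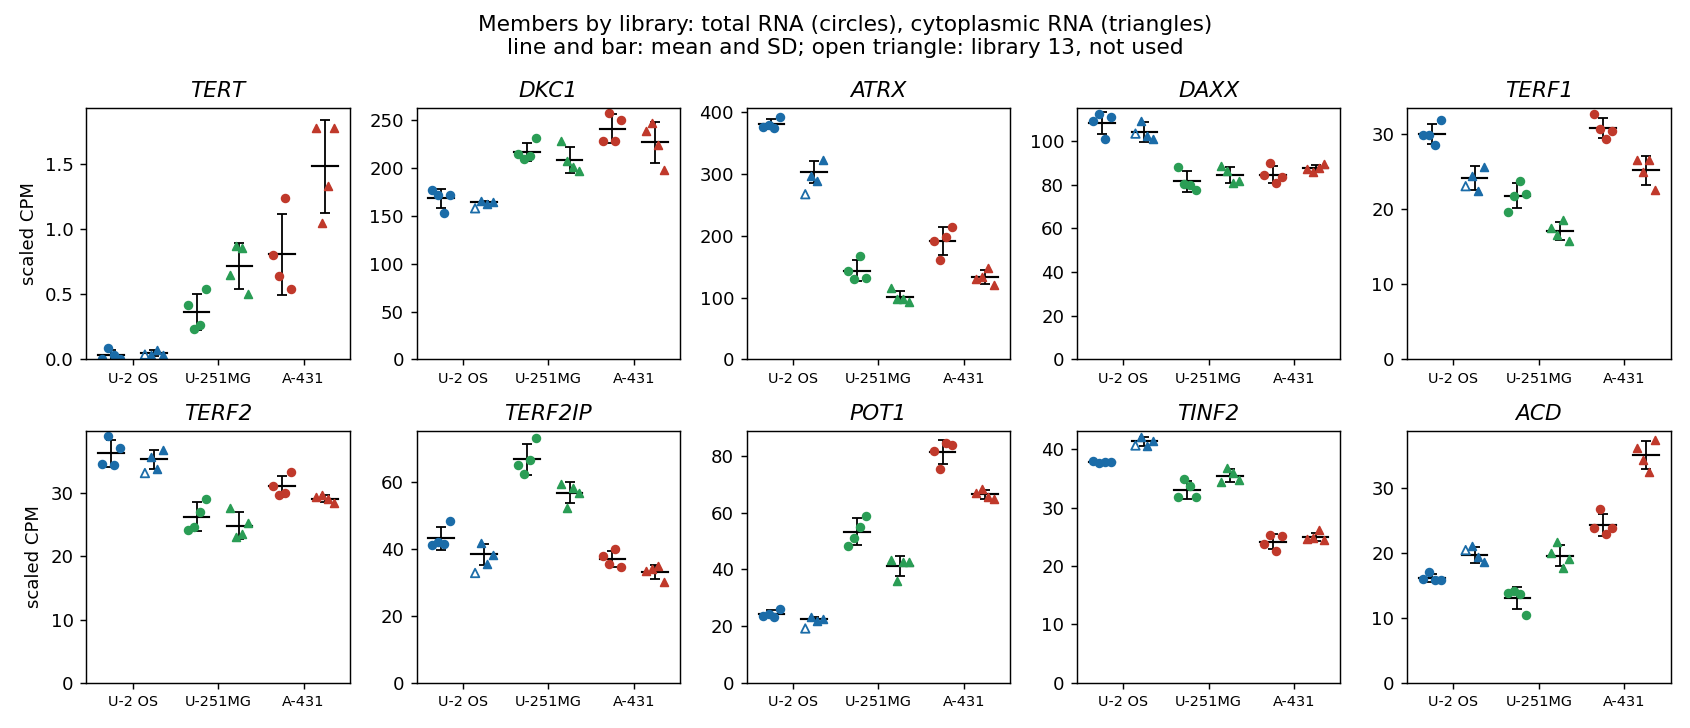
Scaled CPM of the 10 members in every library, by cell line, with total RNA as circles and cytoplasmic RNA as triangles; lines and bars give the mean and SD, and the open triangle is library 13, which was not used. TERT in U-2 OS stays between 0 and 0.0850 CPM, while ATRX is highest in U-2 OS, at a mean of 380 CPM in total RNA.

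ATRX, a chromatin remodeller, was highest in U-2 OS, where TERT and DKC1 were lowest. In total RNA it stood at 376, 379, 374 and 392.4 CPM in U-2 OS, with 144, 131, 167 and 131 for U-251MG and 192, 161, 198 and 215 for A-431. In cytoplasmic RNA the U-2 OS values were 296, 289 and 323, with 115, 97.5, 98.3 and 92.7 for U-251MG and 130, 133, 148 and 121 for A-431. Every U-2 OS library lay above every library of the other lines, also across the fractions.

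ATRX was 1.956-fold higher in U-2 OS than in A-431 (log2 ratio 0.97, SE 0.081, adjusted p = 6.56e-11) and 2.67-fold higher than in U-251MG (1.42, SE 0.082, adjusted p = 5.75e-14) in total RNA. In cytoplasmic RNA it was 2.25-fold and 2.94-fold higher (log2 ratios 1.17 and 1.56, SE 0.074 for both). U-251MG was in turn 1.37-fold lower than A-431 in total RNA (-0.45, SE 0.081, adjusted p = 2.31e-05) and 1.31-fold lower in cytoplasmic RNA. Gene-level ATRX counts do not show whether the reading frame is intact.

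DAXX, the H3.3 chaperone that binds ATRX, was also highest in U-2 OS, by less. U-2 OS total RNA held 109, 112, 101 and 111 CPM, that of U-251MG 88.1, 80.1, 80.0 and 77.5, and that of A-431 84.2, 89.7, 80.9 and 83.4. The U-2 OS libraries stood above all others and those of U-251MG and A-431 overlapped. DAXX was 1.26-fold higher than in A-431 (log2 ratio 0.33, SE 0.063, adjusted p = 2.91e-05) and 1.34-fold higher than in U-251MG (0.42, SE 0.063, adjusted p = 1.29e-06). In cytoplasmic RNA the difference from A-431 stood at the threshold (log2 ratio 0.23, adjusted p = 9.98e-04) and was not called without library 14, 15, 16 or 22. Per kb of transcript and in total RNA, ATRX amounted to 0.800 ± 0.0319 (SD, n = 4) of DAXX in U-2 OS, against 0.401 ± 0.04996 for U-251MG and 0.517 ± 0.0778 for A-431.

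**Figure D2:**
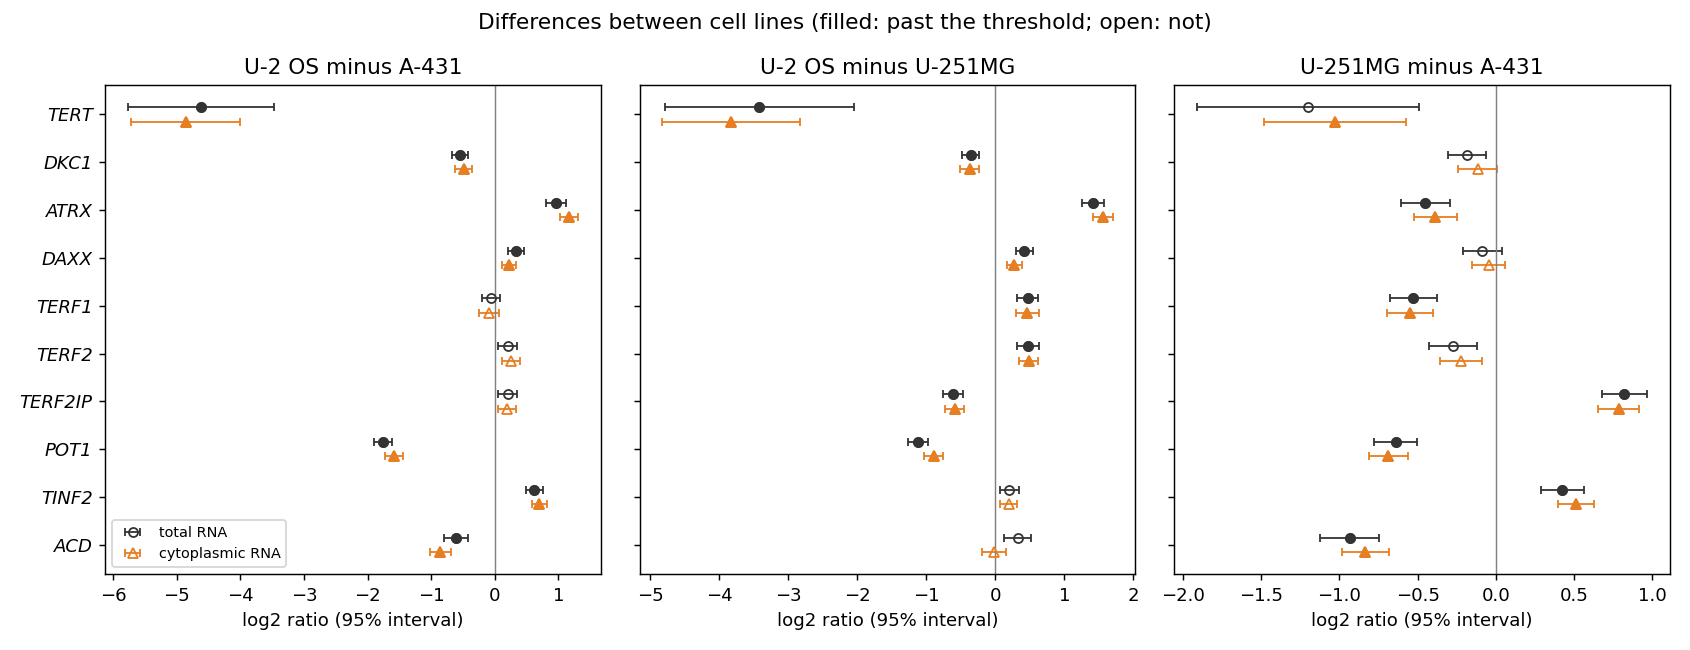
Log2 ratios between the cell lines for each member with 95% intervals, in total RNA (circles) and cytoplasmic RNA (triangles); filled symbols passed the threshold, and the scale differs between the panels. TERT at -4.62 and POT1 at -1.76 are the lowest in U-2 OS against A-431 in total RNA, and ATRX at 0.97 the highest.

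Among the shelterin genes, POT1 had the largest difference between U-2 OS and each other line. POT1 caps the single-stranded overhang. Its CPM in total RNA was 23.7, 24.3, 23.3 and 26.2 for U-2 OS, 48.4, 51.1, 55.1 and 58.9 for U-251MG, and 81.8, 75.4, 84.5 and 83.8 for A-431. None of the 6 groups of libraries overlapped its neighbour in this order, with cytoplasmic RNA below total RNA of the same line each time.

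POT1 was 3.39-fold lower in U-2 OS than in A-431 (log2 ratio -1.76, SE 0.073, adjusted p = 2.10e-17) and 2.18-fold lower than in U-251MG (-1.12, SE 0.073, adjusted p = 3.35e-13). In turn U-251MG was 1.56-fold below A-431 (-0.64, SE 0.070, adjusted p = 8.75e-09). In cytoplasmic RNA the 3 log2 ratios were -1.58, -0.90 and -0.69, all called.

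ACD, which encodes the POT1 partner TPP1, was also highest in A-431. Total RNA held 15.9, 17.1, 15.9 and 15.8 CPM for U-2 OS, 13.8, 14.1, 13.6 and 10.5 for U-251MG, and 23.8, 26.7, 22.9 and 23.8 for A-431. The A-431 libraries stood above all others of total RNA. ACD was 1.53-fold lower in U-2 OS than in A-431 (log2 ratio -0.61, SE 0.094, adjusted p = 2.00e-06) and 1.91-fold lower in U-251MG than in A-431 (-0.93, SE 0.096, adjusted p = 2.63e-09). Between U-2 OS and U-251MG it was not called: the log2 ratio was 0.32 (95% interval 0.13 to 0.51) in total RNA and -0.02 (-0.19 to 0.15) in cytoplasmic RNA. With the GC trend over all genes taken out, the value in total RNA was 0.0075 (adjusted p = 0.936, edgeR).

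TINF2, whose product links the double-strand binders to TPP1, had its highest level in U-2 OS. Total RNA held 38.0, 37.6, 37.8 and 37.8 CPM for U-2 OS, 31.8, 35.0, 33.8 and 31.8 for U-251MG, and 23.7, 25.3, 22.6 and 25.1 for A-431. The 3 lines did not overlap, but only the differences from A-431 were called: 1.54-fold higher in U-2 OS (log2 ratio 0.63, SE 0.071, adjusted p = 1.30e-08) and 1.34-fold higher in U-251MG (0.43, SE 0.072, adjusted p = 7.79e-06). Unstranded reads of TINF2 and GMPR2 cannot be told apart in the stretch of exon bases that the genes share in GENCODE v44lift37. If the study's annotation shares that stretch as well, reads lying wholly within it were counted for neither gene and are missing from the TINF2 counts.

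TERF2IP was highest in U-251MG. Total RNA held 64.9, 62.4, 66.4 and 73.0 CPM for U-251MG, 41.1, 41.9, 41.4 and 48.3 for U-2 OS, and 37.8, 35.4, 39.8 and 34.6 for A-431. No U-251MG library overlapped another line. It was 1.77-fold higher in U-251MG than in A-431 (log2 ratio 0.82, SE 0.074, adjusted p = 2.29e-10) and 1.53-fold lower in U-2 OS than in U-251MG (-0.62, SE 0.074, adjusted p = 3.43e-08). The U-2 OS libraries lay above those of A-431, and the difference of 0.20 (95% interval 0.06 to 0.35) was not called.

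The genes of the double-strand binders TRF1 and TRF2 were lowest in U-251MG. TERF1 in total RNA was 29.8, 29.8, 28.5 and 31.8 CPM for U-2 OS, 19.6, 21.7, 23.7 and 21.99 for U-251MG, and 32.6, 30.6, 29.3 and 30.4 for A-431. TERF2 was 34.6, 39.0, 34.4 and 37.1 CPM for U-2 OS, 24.1, 24.7, 27.1 and 29.1 for U-251MG, and 31.1, 29.8, 30.0 and 33.3 for A-431. U-2 OS and A-431 overlapped for TERF1 and not for TERF2.

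Against U-251MG, U-2 OS was 1.38-fold higher for TERF1 (log2 ratio 0.47, SE 0.077, adjusted p = 5.55e-06) and 1.39-fold higher for TERF2 (0.47, SE 0.078, adjusted p = 5.71e-06). TERF1 was also lower in U-251MG than in A-431 (-0.53, SE 0.077, adjusted p = 1.08e-06). For TERF2 the difference between these lines was not called (-0.27, SE 0.079, adjusted p = 0.00327, edgeR). Between U-2 OS and A-431 neither was called, with log2 ratios of -0.06 (95% interval -0.21 to 0.09) for TERF1 and 0.20 (0.05 to 0.35) for TERF2.

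On the scale of CPM per kb of transcript, the 6 shelterin genes together differed little in sum but were made up differently. Their summed level per kb of transcript in total RNA was 81.6 CPM ± 2.72 (SD, n = 4) for U-2 OS, 88.9 ± 3.12 for U-251MG and 89.7 ± 0.607 for A-431. POT1 made up 7.61% ± 0.147 of that sum for U-2 OS, 15.3% ± 0.804 for U-251MG and 23.1% ± 1.14 for A-431. TINF2 made up 25.7% ± 0.892, 20.7% ± 1.1998 and 14.95% ± 0.777, so the order of the lines was the reverse of that for POT1. The sum and the shares depend on this scale. By mean deposited RPKM, POT1 stood above TINF2 in each line, at 178 and 102 for U-2 OS, 299 and 79.4 for U-251MG, and 491 and 74.9 for A-431.

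In total RNA TERF2IP had its largest share in U-251MG, 35.2% ± 1.71, against 24.8% ± 1.24 for U-2 OS and 19.3% ± 1.29 for A-431. ACD had its smallest, 10.005% ± 1.55, in the same line, against 13.5% ± 0.622 for U-2 OS and 18.5% ± 1.29 for A-431. Within a library of total RNA, POT1 per ACD was 0.565 ± 0.0377 for U-2 OS, 1.57 ± 0.368 for U-251MG and 1.26 ± 0.1402 for A-431. In cytoplasmic RNA POT1 per ACD was lower, 0.429 ± 0.0220 (n = 3) for U-2 OS, 0.793 ± 0.121 for U-251MG and 0.712 ± 0.0502 for A-431, and hence below 1 in every line on this scale. By mean deposited RPKM, POT1 stood above ACD in cytoplasmic RNA of every line, at 149 and 123 for U-2 OS, 246.5 and 113 for U-251MG, and 379 and 208 for A-431. TERF1 per TERF2 in total RNA lay at 0.914 ± 0.0503, 0.917 ± 0.0649 and 1.09 ± 0.0673. These shares and ratios are descriptions of mRNA levels per length and carry no test.

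**Figure D3:**
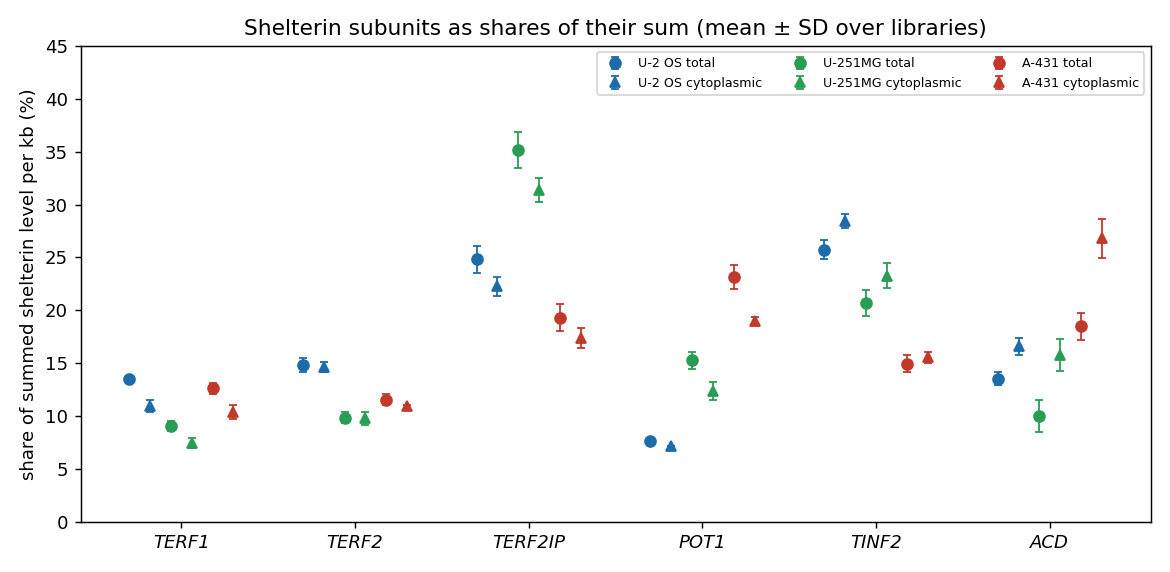
Share of each shelterin gene in the summed scaled CPM per kb of transcript, as mean and SD over libraries for each line and fraction. POT1 rises from 7.61% in U-2 OS to 23.1% in A-431 total RNA, and TINF2 falls from 25.7% to 14.95%.

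Levels of different members were set against each other only per length. In total RNA the deposited RPKM values put DKC1 first in U-251MG and A-431 and ATRX first in U-2 OS, and TERT last in all 3 lines. The read numbers deposited beside these RPKM values were, summed over all libraries, 1.445 times (TERF2IP) to 10.7 times (TERT) the gene counts, a factor that differs between members. Scaled CPM per kb, added after the data were seen, put DKC1 first in all 3 lines, at 68.1 ± 4.10 (SD, n = 4) for U-2 OS, 87.7 ± 3.90 for U-251MG and 97.6 ± 6.19 for A-431 total RNA. TERT was again last, at 0.00752, 0.0904 and 0.199. POT1 was the 9th of the 10 members in U-2 OS total RNA on this scale and the 4th by RPKM, and in A-431 total RNA the 3rd by both. In U-2 OS total RNA ATRX was the 3rd of the 10 per kb, at 34.1 ± 0.741.

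**Figure D4:**
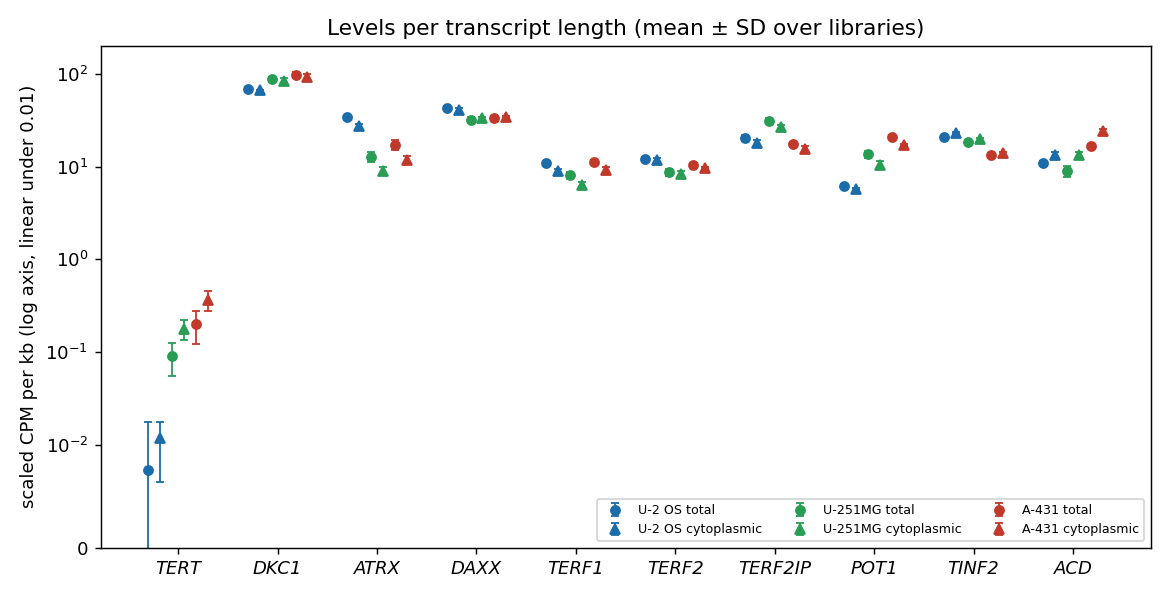
Scaled CPM per kb of transcript for each member on a logarithmic axis that is linear under 0.01, as mean and SD over libraries for each line and fraction. TERT lies far below the rest, at 0.00752 in U-2 OS total RNA, and DKC1 leads, at 68.1 to 97.6 in total RNA.

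The lines differed in most genes, and the members were no exception. In total RNA 34.8% of the 18610 genes tested were higher and 30.8% lower in U-2 OS than in A-431, and 3 members were higher (ATRX, DAXX, TINF2) and 4 lower (TERT, DKC1, POT1, ACD). Against U-251MG the background was 34.2% higher and 28.3% lower, and 4 members were higher (ATRX, DAXX, TERF1, TERF2) and 4 lower (TERT, DKC1, TERF2IP, POT1). Between U-251MG and A-431 it was 28.5% higher and 29.3% lower, with 2 members higher (TERF2IP, TINF2) and 4 lower (ATRX, TERF1, POT1, ACD). The counts of members lie near these shares. The median absolute log2 ratio of the members was 0.58, 0.47 and 0.49 in these comparisons, against 0.77, 0.72 and 0.65 over all genes. On the deposited RPKM values, limma called 5, 3 and 2 members in the same comparisons, and the calls that held were TERT, ATRX and POT1 for U-2 OS against both lines, DKC1 and ACD for U-2 OS against A-431, and POT1 and ACD for U-251MG against A-431. The shares of all genes that limma called are not given here.

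In cytoplasmic RNA 34.1% of the 19344 genes tested were higher and 31.1% lower in U-2 OS than in A-431, with 3 and 4 members. Against U-251MG it was 33.2% and 28.7%, with 4 and 4 members. Between U-251MG and A-431 it was 30.1% and 30%, with 2 members higher and 5 lower, TERT being the fifth. Within flow cell B, which held 4 cytoplasmic libraries of A-431 and 2 of each other line, the log2 ratios of U-2 OS to A-431 and to U-251MG were -4.65 and -3.70 for TERT, 1.23 and 1.54 for ATRX, and -1.56 and -0.82 for POT1, all called. DAXX in U-2 OS against both lines, and TERT and ATRX in U-251MG against A-431, kept their direction within that flow cell and were not called. Every library of total RNA was on flow cell A.

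Between total RNA and the libraries labelled cytoplasmic, few members passed the threshold. In U-2 OS, where 4.75% of 18049 genes were higher and 3.61% lower in total RNA, ATRX (log2 ratio 0.33, SE 0.051, adjusted p = 7.39e-06) and TERF1 (0.32, SE 0.071, adjusted p = 7.10e-04) were higher in total RNA and no member was lower. In U-251MG, with 5.93% of 16128 genes higher and 6.98% lower, ACD alone was called, and it was lower in total RNA (-0.61, SE 0.112, adjusted p = 8.74e-04). In A-431, with 10.2% of 16376 genes higher and 9.51% lower, ATRX (0.54, SE 0.077, adjusted p = 3.33e-05) and POT1 (0.31, SE 0.054, adjusted p = 2.13e-04) were higher and ACD lower (-0.52, SE 0.069, adjusted p = 2.02e-05).

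The fraction differences ran with the GC content of the transcripts. The log2 ratios of the 4 members under 50% GC, POT1 (36.6%), ATRX (36.9%), TERF1 (39.9%) and DKC1 (46.3%), were above 0 in all 3 lines. So were those of TERF2IP (50.2%) and TERF2 (51.1%), while that of ACD (62.8%) was below 0 in all 3. TERT (65.7%) had log2 ratios of -1.0006 (SE 0.324, adjusted p = 0.0214) in U-251MG and -0.82 (SE 0.258, adjusted p = 0.0135) in A-431, neither called. Over the members, Pearson's r between GC content and the log2 ratio was -0.84 for U-2 OS (9 members), -0.93 for U-251MG (10) and -0.93 for A-431 (10), as a description, since all points share the same libraries. The study reported longer transcripts among genes higher in total RNA. Here ATRX has 11165 bases, POT1 3924, TINF2 1801 and ACD 1467, but TERT, with its negative ratios, has 4039. The part of length was not tested. With the GC trend over all genes taken out, 0 members were called by edgeR in any line, with a smallest adjusted p of 0.0173 for U-2 OS, 0.00887 for U-251MG and 0.00287 for A-431; ATRX then stood at 0.13, 0.13 and 0.28 and ACD at -0.04, -0.05 and -0.12 in the same order. In A-431 the cytoplasmic libraries were all on flow cell B and those of total RNA on flow cell A, and hence fraction and flow cell cannot be told apart there. Within flow cell A the cytoplasmic arm of U-2 OS is library 14 alone, assumed to vary like the total RNA libraries. ATRX stood at 0.35 there (adjusted p = 0.00289, edgeR), close to the 0.33 over all libraries, and ACD in U-251MG, with 2 cytoplasmic libraries, at -0.52, neither called with so few libraries.

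**Figure D5:**
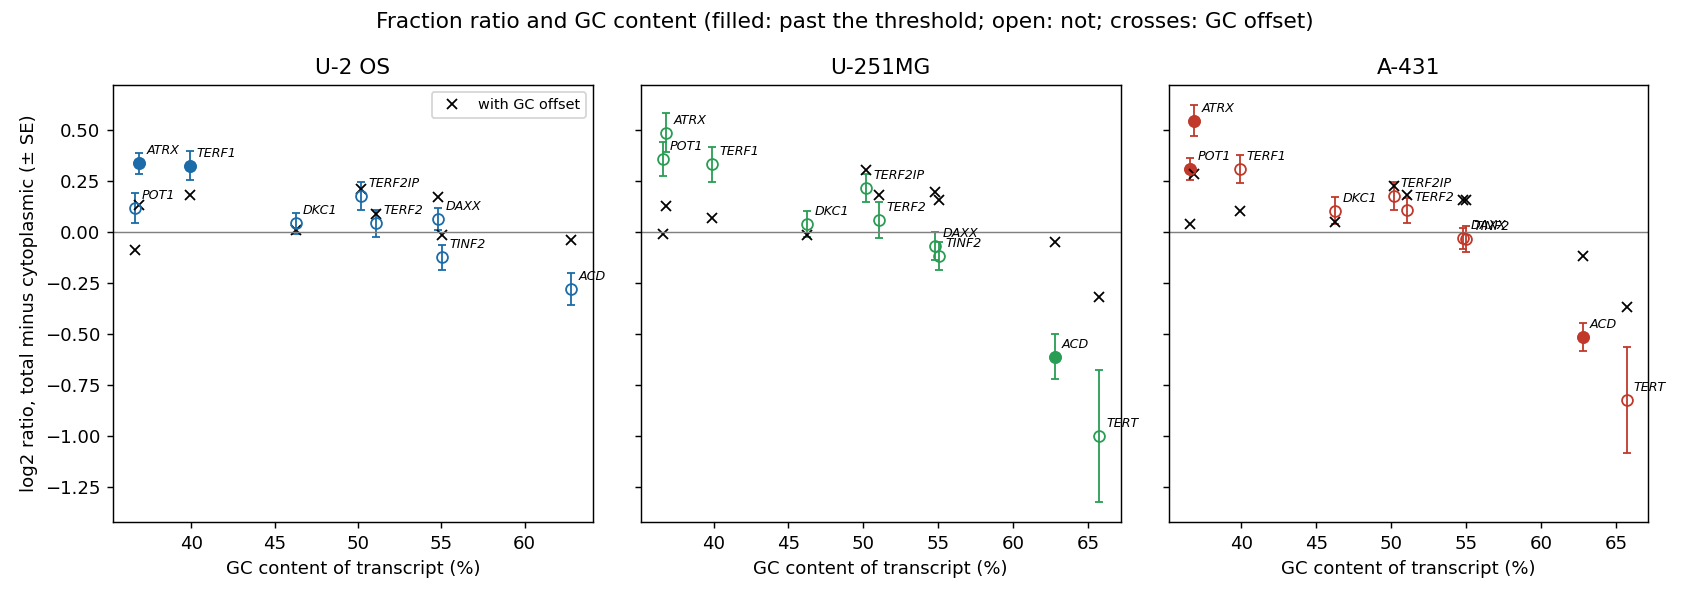
Log2 ratio of total minus cytoplasmic RNA with its SE against the GC content of the transcript, for the members in each cell line; filled circles passed the threshold, open circles did not, and crosses give the same ratio after the GC trend of all genes was taken out. The circles fall from ATRX, at 0.33 to 0.54, to ACD, at -0.28 to -0.61, with TERT lower still in U-251MG and A-431. The crosses lie closer to 0 for ATRX and ACD, but for DAXX and TINF2 in U-251MG and A-431 they lie above 0 and the circles below it.

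The call of TERF1 in U-2 OS was lost without library 1, 2, 4, 14, 15 or 16 (log2 ratio 0.26 to 0.35), that of ACD in U-251MG without 5, 6, 7, 17, 18 or 20 (-0.66 to -0.51), and that of POT1 in A-431 without 9, 12 or 23 (0.29 to 0.35). Calls over all genes mostly fell in these fits too. In U-2 OS they were 202 to 758 higher and 257 to 740 lower, against 858 and 651 in the main fit. In U-251MG they were 217 to 548 and 316 to 680, against 957 and 1126. In A-431 they were 902 to 1150 and 913 to 1091, against 1677 and 1557. DESeq2 called 2, 3 and 4 members in the 3 lines, and one model over all 6 groups called 0 for the first line and 4 for U-251MG. The shares of all genes called under these settings are not given here. TERT in U-2 OS had too few counts for the fit, and its mean CPM of 0.0304 in total RNA and 0.0481 in cytoplasmic RNA gave p = 0.60 in a two-sided exact permutation test (n = 4 and 3, smallest possible p 0.0286). A fraction difference was not detectable at such counts.

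Whether the fraction difference itself changed from line to line was tested by an interaction term over all 6 groups, at an adjusted p under 0.05. For U-2 OS against A-431, where 1.17% of 19948 genes were higher and 0.947% lower, edgeR called 0 members, with 0 at an unadjusted p under 0.05 and 0 by DESeq2; the differences in log2 ratio were -0.20 for ATRX (95% interval -0.43 to 0.03), -0.18 for POT1 (-0.38 to 0.02) and 0.24 for ACD (0.00 to 0.49). For U-2 OS against U-251MG, with 0.762% higher and 0.907% lower, it also called 0, with 2 at an unadjusted p under 0.05, namely POT1 (-0.26, adjusted p = 0.151) and ACD (0.31, adjusted p = 0.178), and 0 by DESeq2. For U-251MG against A-431, with 0.0401% higher and 0.12% lower, 0 were called, 0 were under an unadjusted 0.05 and 0 were called by DESeq2. Apart from TERT, no member differed by more than 0.31.

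The counts of the gene lists that follow, all for total RNA, are descriptions. They are to be read against all genes tested, of which 34.8% were higher and 30.8% lower in U-2 OS than in A-431, and 34.2% higher and 28.3% lower than in U-251MG. Of the 11 measured genes of telomerase assembly and its RNA, 4 were higher and 4 lower than in A-431, and 2 were higher and 4 lower than in U-251MG; TERC and PINX1 were not analysed here. The ATPase gene RUVBL2 was lower against both (log2 ratios -0.58 and -0.56), as was PARN, which trims the telomerase RNA (-0.97 and -0.50). TEP1, a telomerase-associated protein gene, was higher against both (0.46 and 1.90). RUVBL1 was lower than in A-431 (-0.75) and not called against U-251MG (adjusted p = 0.957, edgeR), and SMG6 was higher than in A-431 (0.54) and lower than in U-251MG (-0.36).

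Of the 8 genes of factors described at the TERT promoter, 1 was higher and 4 lower in U-2 OS than in A-431, and 4 were higher and 2 lower than in U-251MG, beside 34.8% and 30.8%, and 34.2% and 28.3%, of all genes. MXD1, a MAX partner that opposes MYC, stood at 1.42 ± 0.262 CPM (SD, n = 4) for U-2 OS, 10.1 ± 2.67 for U-251MG and 10.2 ± 1.36 for A-431, and was lower against both (log2 ratios -2.86 and -2.81 for U-2 OS minus A-431 and minus U-251MG). MYC was not called (-0.18 and -0.49). SP1 and MAX were lower than in A-431 (-0.26 and -0.59) and higher than in U-251MG (0.37 and 1.06), and ETS1 was lower than in U-251MG (-0.89) and not called against A-431 (0.10).

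Around ATRX and DAXX, 4 of 11 genes of H3.3 deposition and heterochromatin were higher and 3 lower in U-2 OS than in A-431, and 3 were higher and 5 lower than in U-251MG (all genes 34.8% and 30.8%, and 34.2% and 28.3%). CABIN1, a subunit of the HIRA complex that deposits H3.3 apart from ATRX and DAXX, was higher against both (log2 ratios 0.48 and 1.30). ASF1B, a histone chaperone, was lower against both (-1.32 and -0.88), as was TRIM28, a corepressor (-0.73 and -0.51). H3-3B, which encodes H3.3 itself, stood at 598 ± 15.7 CPM in U-2 OS and was called against U-251MG only (-0.41, and -0.14 against A-431), and CBX5 was called against neither (-0.09 and -0.01).

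Of the 12 measured genes of telomere replication, 6 were higher and 5 lower in U-2 OS than in A-431, and 5 were higher and 2 lower than in U-251MG (all genes 34.8% and 30.8%, and 34.2% and 28.3%); TEN1 and RTEL1 were not analysed here. HMBOX1, which encodes a protein that binds telomere repeats, was 47.4 ± 4.65 CPM for U-2 OS, 13.7 ± 0.707 for U-251MG and 16.3 ± 1.63 for A-431 (log2 ratios 1.52 and 1.80 for U-2 OS minus A-431 and minus U-251MG). TNKS2 was lower against both (-0.75 and -0.68), while its relative TNKS, whose product releases TRF1 from telomeres, was higher than in A-431 (0.74) and not called against U-251MG (0.20). RIF1 was higher than in A-431 (0.44) and not called against U-251MG (0.24), and POLA1 lower than in A-431 (-0.74) and not called against U-251MG (0.13).

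Of 27 recombination genes, on which ALT draws, 7 were higher and 9 lower in U-2 OS than in A-431, and 10 were higher and 5 lower than in U-251MG, while over all genes the shares were 34.8% and 30.8%, and 34.2% and 28.3%. SLX4, a scaffold of nucleases, was 41.3 ± 1.93 CPM for U-2 OS, 18.2 ± 1.73 for U-251MG and 13.8 ± 0.836 for A-431 (log2 ratios 1.56 and 1.19 for U-2 OS minus A-431 and minus U-251MG). SP100, a component of the nuclear bodies that carry PML, was lower against both (-1.11 and -0.88), and so was RPA1, which coats single-stranded DNA (-0.60 and -0.50). NR2C2, an orphan receptor gene, was higher than in A-431 (1.24) and not called against U-251MG (0.09). BRCA1 and NBN were lower than in A-431 (-0.67 and -0.59) and not called against U-251MG (-0.15 and -0.20). The list medians lay at 0.05 against A-431 and 0.10 against U-251MG, next to 0.07 and 0.09 over all genes.

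Of 8 proliferation genes, 1 was higher and 5 lower in U-2 OS than in A-431, and 3 were higher and 1 lower than in U-251MG (all genes 34.8% and 30.8%, and 34.2% and 28.3%). TOP2A was higher against both (log2 ratios 0.42 and 0.60) and AURKB lower against both (-1.12 and -0.81). PCNA and MKI67 were lower than in A-431 (-0.99 and -0.55) and not called against U-251MG (-0.04 and -0.11), and CCNB1 was called against neither (0.15 and 0.01). The summed level of the list was 3253 to 3577 CPM for U-2 OS, 2819 to 3086 for U-251MG and 3604 to 4200 for A-431, and its part in the members' differences was not tested.

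Over the 23 libraries used and 18710 genes, the genes whose log2 CPM followed TERT most closely were PLEKHN1 (Pearson's r = 0.96), APOOP4 (0.95) and DTNBP1 (0.95). For ATRX they were GCC2 (0.99), LMNB1 (0.99) and SBNO1 (0.98), for DKC1 GTPBP4 (0.95), CHST11 (0.95) and MCMBP (0.94), and for DAXX APEX1, CDK5R2 and KCTD17 (0.96 for each). With 3 lines, any gene that steps between the lines in the same order reaches such values, so they describe these libraries and nothing more.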

How the data were processed

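RNA-seq of 24 libraries was re-analysed from deposited files. The authors' tools were TopHat 1.1.4 for alignment (hg19, that is GRCh37), SAMtools 0.1.8, and HTSeq 0.4.6 for unstranded counting over Ensembl exons, and the deposited counts are whole numbers per gene. The 6 entries per file that name no gene (25.9% to 33.6% of the entries' total) were left out. A second kind of deposited file holds RPKM values from rpkmforgenes, used as the authors gave them. The labels name Trizol and paired ends, the methods RNeasy and single reads.

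Counts were scaled by TMM and filtered by filterByExpr (minimum count 10), and cell lines within a fraction, fractions within a line and their interaction were tested with edgeR 4.0.16 in R 4.3.3 (the quasi-likelihood F-test with robust dispersions, p-values adjusted by Benjamini-Hochberg over all genes tested, called at an adjusted p under 0.001, and 0.05 for the interaction). Each result was also computed with DESeq2 1.42.0, RLE scaling, no filter, another threshold (0.05, or 0.001 for the interaction), a GC offset, all deposited libraries, one model, a replicate block, single flow cells, limma 3.58.1 on log2(RPKM + 0.1) or log2(RPKM + 1), and each library left out in turn. In simulated data, U-2 OS minus A-431 total recovered 38 of 100 genes changed by a log2 ratio of 0.5 and 69 of 100 changed by 1, among 18610 genes. At 0.5 the fractions recovered 52 of 100 for U-2 OS (18049 genes), 16 for U-251MG (16128) and 60 for A-431 (16376). The SE of an edgeR log2 ratio is its absolute value divided by the square root of F. Intervals of log2 ratios reach 1.96 SE to each side. They are approximate, and can be too narrow with few libraries or, as for TERT, few counts. The intervals of pooled TERT counts are exact Poisson and conditional binomial intervals. GC content and length are those of the GENCODE v44lift37 transcript with the longest coding sequence.

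Named genes were the 10 members and, of each other list, the 4 of highest mean level and the gene called in both U-2 OS comparisons of total RNA with the largest smaller log2 ratio in each direction. For TERT, ATRX, DKC1 and DAXX the 3 best correlated genes were named. The members and lists were chosen with earlier results of these data known.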

Additional observations from a re-analysis of the deposited data

Results flagged for a closer look

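A library stood far from the other 3 of its group, by Dixon's test at the 95% level, in 5 of 50 combinations of a member and a group of 4; chance gives about 1 in 20. TERF2IP was 48.3 CPM in library 4 of U-2 OS total RNA, against 41.1 to 41.9 in the others. ACD was 17.1 CPM (17.05) in library 2 of the same group, against 15.8 to 15.9, and 10.5 in library 8 of U-251MG total RNA, against 13.6 to 14.1. POT1 was 35.8 CPM in library 18 of U-251MG cytoplasmic RNA, against 42.6 to 43.5. TINF2 was 26.1 CPM in library 23 of A-431 cytoplasmic RNA, against 24.5 to 24.8. The interaction test called no difference of a member's fraction ratio between cell lines.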

How the results depend on the processing

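The label numbers run over all 24 libraries and no 2 groups share one, so cell lines were not paired. The study's read table numbers the replicates within each line, and same-numbered libraries of the fractions, compared by their deviations from the group means, had correlations from 0.048 up to 0.141 (U-2 OS), from -0.376 up to 0.301 (U-251MG) and from 0.0177 up to 0.213 (A-431), and 6 of 11 cytoplasmic libraries correlated best with their own number. In U-2 OS all 3 cytoplasmic libraries did so, at low correlations. The main tests did not take the numbers as pairs, and a pairing in U-2 OS is not excluded. With them as a replicate block, 2, 1 and 4 members were called in the fractions of the 3 lines (2, 1 and 3 without it) and 0 in the interaction; ATRX passed in U-251MG (0.48, adjusted p = 9.80e-04, edgeR), ACD there did not (-0.62, adjusted p = 0.00103), and TERF1 passed in A-431 (0.31, adjusted p = 6.45e-04). Over all genes the block moved the calls for the fractions from 1509 to 3388 in U-2 OS and from 3234 to 4293 in A-431. In U-251MG they fell from 2083 to 1582. Calls for the interaction moved from 333 to 662 for U-2 OS and U-251MG. They moved from 422 to 603 for U-2 OS and A-431, and from 32 to 47 for U-251MG and A-431. The block and the levels per kb of transcript were chosen after seeing the data. Of the member values outside the settings that leave out 1 library, 748 kept direction and side of the threshold, 36 passed it only under the alternative, 75 no longer passed it, and 33 changed sign, all of them in values that were not called. ATRX and POT1 in U-2 OS against both other lines, and TERT there, were called under every setting run. The cause of the changes below was not tested.

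On RPKM values with either pseudocount (0.1 or 1), 3 members were called for U-2 OS minus U-251MG in each fraction of the RNA, 2 for U-251MG minus A-431 in each, and 0 for total minus cytoplasmic in each line. With the GC offset the fraction counts were also 0 in each line, and at a threshold of 0.05 they were 4 in U-2 OS and 6 in each of the other lines. For U-2 OS fractions, all deposited libraries gave 1, one model 0 and flow cell A alone 0, and leaving out 1 library gave 1 to 2. For U-251MG fractions, DESeq2 gave 3, no filter 3, one model 4 and flow cell A alone 0, and leaving out 1 library gave 0 to 2. Apart from the fits with 1 library left out, these counts stand without the shares of all genes called. They do not show whether the members moved apart from other genes.

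These uncalled log2 ratios changed sign. ACD for U-2 OS minus U-251MG in cytoplasmic RNA came to 0.0233 with DESeq2, 0.0233 with RLE scaling, 0.0018 without a filter and 0.0077 in one model. With RPKM plus 0.1 and plus 1 it came to 0.1257 and 0.1247, TERF1 for U-2 OS minus A-431 to 0.2131 and 0.2106 in total RNA and 0.1408 and 0.1387 in cytoplasmic RNA, DAXX for U-251MG minus A-431 to 0.0419 and 0.0418 in total and 0.0287 and 0.0286 in cytoplasmic RNA, TERF2 there to 0.1492 and 0.1475 in cytoplasmic RNA, TERF2 in U-251MG fractions to -0.0882 and -0.0870, and TINF2 in A-431 fractions to 0.0885 and 0.0873. With the GC offset, TERF1 for U-2 OS minus A-431 total came to 0.082. In the fractions it gave POT1 -0.090 in U-2 OS, DKC1 -0.016, DAXX 0.19, POT1 -0.010 and TINF2 0.15 in U-251MG, and DAXX 0.15 and TINF2 0.16 in A-431. In the interaction it gave ATRX 0.033 for U-2 OS minus U-251MG, and POT1 -0.042 and ACD 0.044 for U-251MG minus A-431. DAXX came to -0.028 for U-2 OS fractions on flow cell A and to 0.0063 for U-251MG minus A-431 cytoplasmic on flow cell B. With 1 library left out, ACD for U-2 OS minus U-251MG cytoplasmic ranged from -0.075 to 0.030, DAXX for U-251MG minus A-431 cytoplasmic from -0.058 to 0.013, TERF2 in U-2 OS fractions from -0.0042 to 0.069, and the U-251MG minus A-431 interaction from -0.11 to 0.042 for ATRX and -0.11 to 0.032 for ACD.

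TERT values in U-2 OS rest on 3 counts over the libraries of total RNA and 4 over those of cytoplasmic RNA.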

Other observations

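Library 13, the U-2 OS cytoplasmic library that was not used, held 1 TERT count. Of the 10 members, 5 were within the range of libraries 14 to 16, 5 below it and 0 above it. ATRX was 267 CPM there, against 289 to 323, POT1 19.2 against 21.8 to 23.2, and TERF2IP 32.8 against 35.5 to 41.6.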
